A study of Drosophila melanogaster with 32 samples.

Results

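Crosses in which the female and the male came from the same evolved population were compared between promiscuous populations (written P.P, female regime before male regime) and monogamous populations (M.M). The 16 arrays were taken by that cross label out of 32 in the series, 8 for each regime, and the 2 arrays of a cross were averaged. This left 8 of the 16 crosses, 4 P.P against 4 M.M, numbered by population 1 to 4. All flies descended from the LHM laboratory base stock of Drosophila melanogaster. In M.M both sexes came from a line in which each fly mated a single time in a generation, and in P.P both came from a line kept under the standard protocol in which flies could mate repeatedly, in each case for 46 generations. Whole females were frozen 6 h after mating, and their total RNA was hybridised to 1-colour Affymetrix Drosophila Genome 2.0 arrays. The other 16 arrays hold between-regime crosses of the same populations, written P.M for promiscuous females with monogamous males and M.P for the converse. Because both mates share a population in an own-population cross, the regime of the female, the regime of the male and their shared history are 1 contrast and cannot be told apart within it.

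Mating changes the physiology of a female fly. Sperm and seminal fluid proteins, among them the sex peptide that acts through the receptor SPR on sensory neurons, start ovulation and egg laying, lower receptivity to further males, alter feeding and gut metabolism, raise juvenile hormone and induce some immune peptides. Seminal proteins that benefit the male can be costly to the female, and monogamy over generations removes competition between males for the same female, so the comparison asks whether the mated state of females from the regimes has come to differ when each is mated to the males it evolved with.

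Each group was made of 4 populations, and the population is the unit of replication. A p-value therefore sets the difference of group means against the variation among cross means within a regime, moderated in limma over probe sets. That variation also holds noise between arrays, since each cross mean rests on 2 arrays. Array medians lay between 5.42 and 5.46 on the log2 scale on which all values below are given. The 2 arrays of an own-population cross correlated at 0.9958 to 0.9976 across probe sets, and arrays of different crosses at 0.9922 to 0.9969. The female label was borne out by the yolk protein gene Yp1, at 14.71 in M.M and 14.75 in P.P, and by the oocyte gene dhd at 14.27 and 14.25. All 10 probe sets for seminal fluid and testis markers had group means between 2.68 and 4.99, in the lower part of a table whose lower quartile, median and upper quartile of level were 3.83, 5.43 and 8.70. The flies were extracted whole, so fewer cells of a type and less RNA per cell cannot be told apart in any result below.

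No gene passed the test across the whole array. With limma, 0 of 18769 probe sets had a Benjamini-Hochberg adjusted p under 0.05, and the smallest adjusted p was 0.162. An unadjusted p under 0.05 was found for 1178 probe sets, 6.28% of those tested, where 938 would be met by chance. Of these, 655 (3.49% of all) were higher in P.P and 523 (2.79%) were lower. The 4 P.P means lay wholly above or wholly below the 4 M.M means for 689 probe sets, or 3.67%, with P.P above in 404 (2.15%) and M.M above in 285 (1.52%). Differences were small in general: over all probe sets the median was 0.00, 51.1% were higher in P.P, and 26 probe sets (0.139%) differed by 1 or more, 16 of them higher. Every gene below is therefore described by its values, and none is a call at the adjusted threshold.

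The smallest p of the array belonged to waterproof, wat, whose product is a fatty acyl-CoA reductase needed to make the airways of the tracheal system liquid free. Its level in the M.M crosses of populations 1 to 4 was 8.86, 8.92, 8.89 and 8.77, and in the P.P crosses it was 9.24, 9.27, 9.22 and 9.31. The groups stood apart by more than the whole range of either, with means of 8.86 ± 0.07 (SD, n = 4) and 9.26 ± 0.04 (SD, n = 4). The difference was 0.40 with an SE of 0.05, or 1.32-fold (limma adjusted p = 0.162), and it was 0.42 in batch 1 and 0.39 in batch 2.

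Among the 12 genes with the smallest p and higher in P.P, the widest difference was that of CG12061. It stood at 4.67, 6.07, 5.52 and 7.08 in the 4 M.M crosses and at 7.60, 7.90, 8.11 and 7.68 in the 4 P.P crosses. The monogamous populations were spread over more than 2 units and the promiscuous ones over less than 1, and the difference was 1.99 with an SE of 0.41, or 3.96-fold (limma adjusted p = 0.514). AANATL4, of the arylalkylamine N-acetyltransferase family, was at 7.13, 6.84, 7.19 and 6.44 in M.M and at 8.07, 8.02, 7.35 and 7.85 in P.P, a difference of 0.92. CG18404 was brighter, at 10.82, 10.85, 10.69 and 10.18 against 11.52, 11.18, 11.29 and 11.59, a difference of 0.76 with an SE of 0.15. In both genes every promiscuous population exceeded every monogamous one. The G protein-coupled receptor gene mthl8 differed by 0.53 and its second probe set by 0.34. The other 7 were nom at 0.55, CG11550 at 0.38, CG43402 at 0.34, CG5687 at 0.29, CG31233 at 0.26, Kr-h2 at 0.16 and AIMP2, a scaffold of the aminoacyl-tRNA synthetase complex, at 0.13. AIMP2 shows how small a difference stood out where replicates were close, since its SD among populations was 0.01 in M.M and 0.02 in P.P. CG43402 is faint, with means below the array's median level.

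The 12 genes with the smallest p and lower in P.P held several metabolic enzymes and a metal transporter. Zip102B, a zinc transporter gene of the ZIP family, was at 7.84, 8.73, 8.34 and 8.50 in M.M and at 7.53, 7.13, 7.24 and 7.50 in P.P. The lowest monogamous cross, that of population 1, was still above the highest promiscuous one, and the mean was 2.00-fold lower in P.P, with an SE of 0.17 on the log2 scale. IscU, the scaffold on which mitochondria assemble iron-sulfur clusters, was at 11.23, 11.21, 11.34 and 11.31 against 11.05, 11.07, 10.94 and 10.94, a difference of -0.27 with an SE of 0.04. CG40485 was at 7.41, 7.05, 7.17 and 6.76 against 6.39, 6.17, 6.12 and 6.14. Its difference of -0.89 holds for 1 probe set only, since a second one for the same gene was at 0.17 in the other direction. The remaining genes were CG11597 at -0.67, the esterase gene alpha-Est2 at -0.61, Had1 at -0.47, CG3609 at -0.35, CG3699 at -0.32, CG42715 at -0.26 and CG13784 at -0.23, with tobi and Desat1 described below. CG42715 and CG13784 were near background, at about 3, and the other CG13784 probe sets, at 0.06 and 0.09, went the other way. Of all 24 genes 4 were among the dimmest 40% of probe sets.

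**Figure D1:**
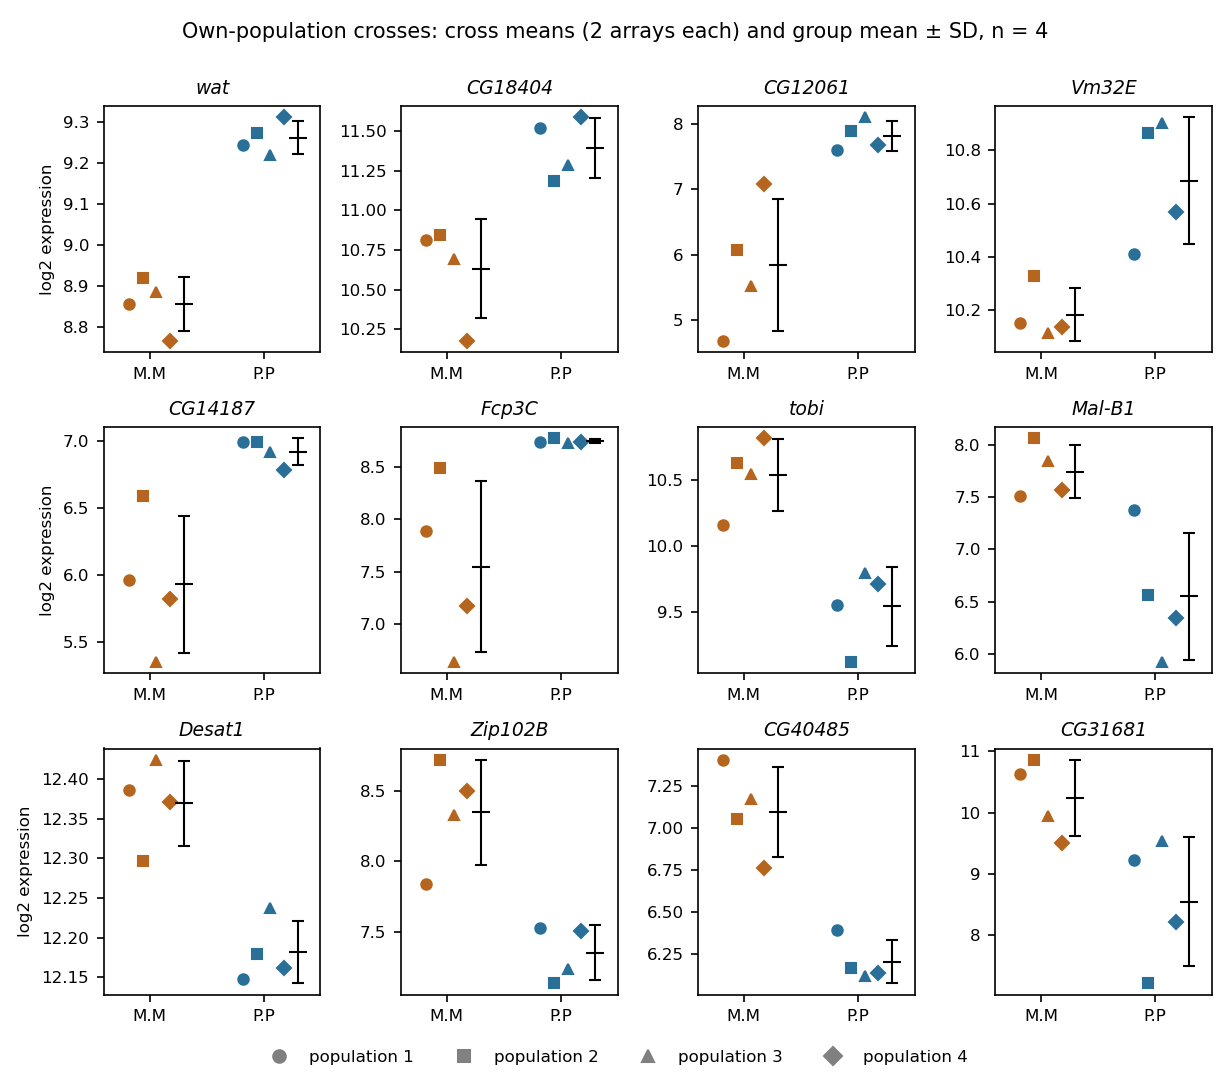
Each panel plots log2 expression of 1 gene in the 4 M.M and 4 P.P crosses (points, mean of 2 arrays, shape by population number) with the group mean ± SD (n = 4) beside them; each panel has its own axis, which does not start at 0. The groups do not overlap except for CG31681, where the P.P crosses lie at 7.22 to 9.54 and the M.M crosses at 9.51 to 10.86.

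The between-regime crosses give the same female populations on other arrays. All 24 genes kept their direction in P.M minus M.P, although CG42715 at 0.00 and Kr-h2 at 0.01 were level there, and 17 of the 24 had an unadjusted p under 0.05. Over the whole array 56% of probe sets had the same direction in both comparisons, and 9.99% were under that p in the between-regime comparison, where limma made 0 adjusted calls, had a smallest adjusted p of 0.374 and placed 1875 probe sets under the unadjusted threshold. Of the 1178 probe sets under an unadjusted p of 0.05 in own-population crosses, 865 (73.4%) had the same direction and 268 (22.8%) were also under it between regimes. The between-regime values were 2.03 for CG12061, -1.16 for Zip102B, 0.88 for AANATL4, 0.76 for CG18404 and -0.85 for CG40485, close to the own-population values above. For wat the between-regime value was 0.25, below its 0.40. The difference of the contrasts is P.P minus M.M, less P.M minus M.P. It equals P.P minus P.M added to M.P minus M.M, so it contrasts promiscuous with monogamous males over females of both regimes. This difference was tested in limma on 1 value for each population number. In that test 4 of the 24 genes had an unadjusted p under 0.05, namely Kr-h2 (0.00285), CG42715 (0.00456), wat (0.0121) and mthl8 (0.0369). Over all probe sets 10.3% did so and 0 passed adjustment (smallest limma adjusted p 0.173). The 24 genes were chosen by P.P minus M.M, which is part of this statistic. Their p-values in this test are therefore not independent of that choice.

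**Figure D2:**
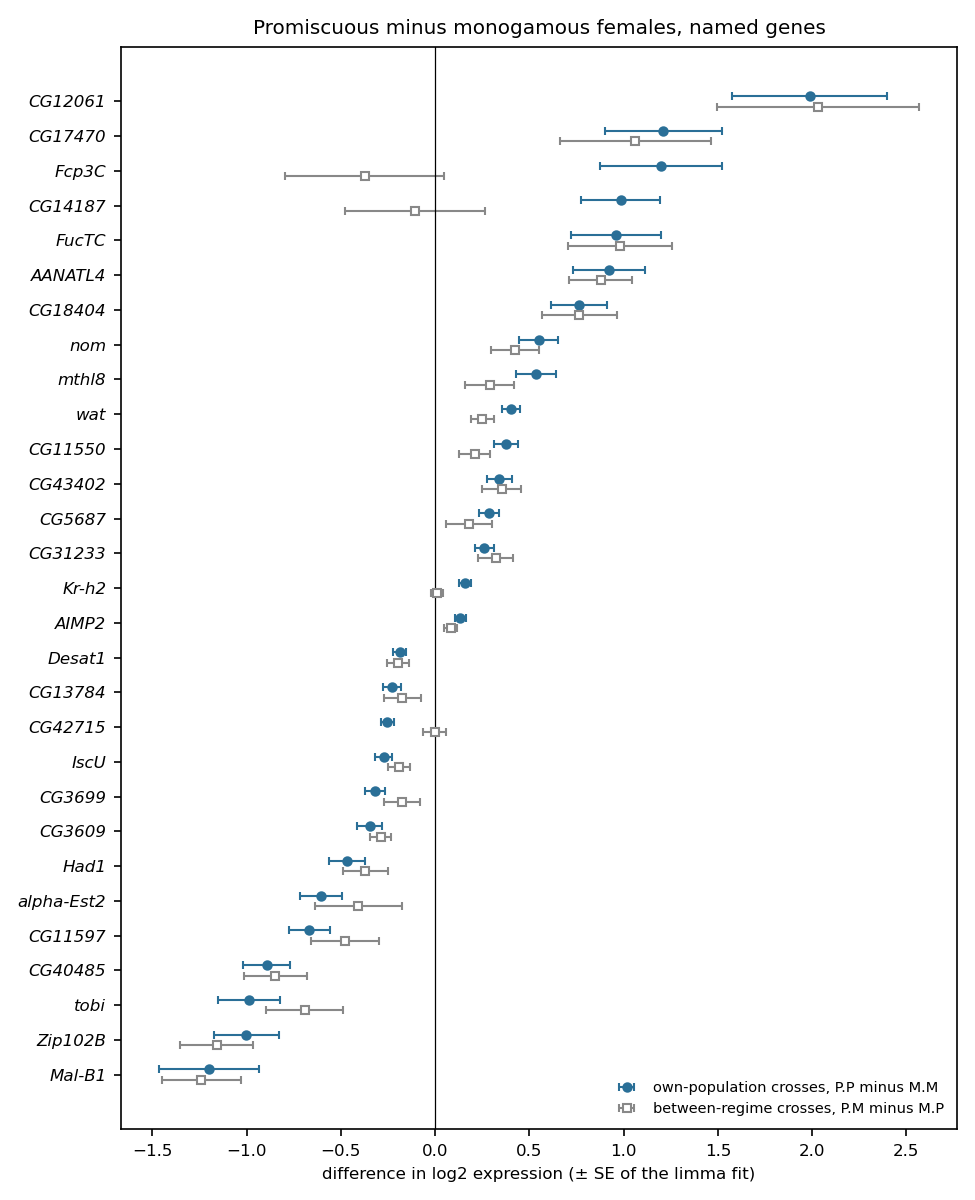
Differences in log2 expression (horizontal axis, ± SE of the limma fit) between promiscuous and monogamous females for the genes named by smallest p or by size, in own-population crosses (filled circles) and between-regime crosses (open squares). Most pairs lie close together, while Fcp3C is at 1.20 in own-population and -0.37 in between-regime crosses and CG14187 at 0.98 and -0.11.

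Among sugar-digesting enzymes, tobi and most maltase genes had lower values in P.P, none past the adjusted threshold. The gene tobi encodes an alpha-glucosidase and is a target of insulin and of the glucagon-like adipokinetic hormone. It was at 10.16, 10.63, 10.54 and 10.81 in M.M and at 9.56, 9.12, 9.79 and 9.71 in P.P, without overlap, a difference of -0.99 with an SE of 0.16 (limma adjusted p = 0.32). The gut maltase gene Mal-B1 was at 7.51, 8.07, 7.85 and 7.57 against 7.37, 6.56, 5.92 and 6.34, a difference of -1.20 (SE 0.27) in which promiscuous population 1 came close to the monogamous crosses. Of the 10 genes of the Mal-A and Mal-B families 9 were lower in P.P, against 48.9% of all probe sets, and 6 of them had an unadjusted p under 0.05, against 2.79% of all probe sets lower at that level. Besides Mal-B1 these 6 were Mal-A7 at -0.90, Mal-A4 at -0.71, Mal-A1 at -0.71, Mal-A3 at -0.67 and Mal-A2 at -0.56. Their crosses overlapped, and population 1 of M.M was the lowest monogamous cross for each of the 5. Mal-A6 had the largest difference of the list, -1.38 with an SE of 0.65, because its crosses ranged from 9.09 to 11.87 in M.M and from 8.48 to 10.95 in P.P. Mal-A5 was higher in P.P, at 0.16. Maltase genes are similar copies and probes for one may bind transcripts of another, so they are not independent readings. The wider list of 25 probe sets, with other genes of trehalose and sugar use, had 16 lower and 9 higher and a median of -0.09. Of its probe sets 8 were lower and 0 higher at an unadjusted p under 0.05, against 2.79% and 3.49% of all probe sets. Outside the maltases and tobi its values went both ways. The widest were a Gpdh1 probe set at -0.22, whose 3 others were at -0.07, 0.03 and 0.02, the regulator gene sug at 0.20 and the hexokinase gene Hex-A at -0.11. The malic enzyme gene Men was at -0.09, the amylase-related gene Amyrel at 0.07, the trehalase gene Treh at 0.04 and Hex-C at 0.02, and of these only Men had an unadjusted p under 0.05. Between regimes the values were -1.24 for Mal-B1, -0.69 for tobi and -0.25 to -0.63 for Mal-A1, Mal-A2, Mal-A3, Mal-A4 and Mal-A7.

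Lipid genes went both ways. The delta-9 desaturase gene Desat1, whose product makes monounsaturated fatty acids for membranes and for pheromones of the cuticle, was at 12.39, 12.30, 12.42 and 12.37 in M.M and at 12.15, 12.18, 12.24 and 12.16 in P.P, a difference of -0.19 (SE 0.03) with no overlap. The acetyl-CoA synthetase gene AcCoAS was at -0.24 and the fatty acid synthase gene FASN1 at -0.16. The carnitine palmitoyltransferase gene whd, which feeds fatty acids into mitochondria for oxidation, was at 0.15, and at 0.01 in a second, faint probe set. Of 36 probe sets 16 were higher and 20 lower, with a median of -0.01. In the list of insulin and nutrient signalling the activin-like ligand gene daw, a target of insulin signalling, was at 7.80, 7.80, 7.93 and 7.81 against 8.10, 8.43, 8.33 and 8.04, a difference of 0.39 with an SE of 0.09. The relaxin-like peptide gene Ilp8, which in adult females is made in the ovary, was at -0.22. The other members had p-values above 0.05, and the list median was 0.01.

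Eggshell genes, made by follicle cells around the maturing oocyte, held some of the wider differences. Fcp3C, a follicle cell protein gene, was at 7.89, 8.49, 6.64 and 7.17 in the 4 M.M crosses and at 8.74, 8.77, 8.72 and 8.73 in the 4 P.P crosses. The 4 promiscuous values fell within an SD of 0.02, against 0.81 in M.M, and the difference was 1.20 with an SE of 0.32 (limma adjusted p = 0.674). That closeness belongs to the averages over batches: single P.P arrays ranged from 8.13 to 9.41, and the difference was 1.86 in batch 1 and 0.53 in batch 2. CG14187 showed the same order, at 5.96, 6.59, 5.35 and 5.82 against 6.99, 6.99, 6.91 and 6.78, a difference of 0.98 (SE 0.21), or 1.45 and 0.52 by batch. Unlike most of the 24 genes with the smallest p, neither gene differed this way in between-regime crosses. Fcp3C was at 7.92, 8.89, 7.21 and 8.16 in M.P and at 8.47, 7.70, 7.97 and 6.55 in P.M. The test of the difference of contrasts, which compares the male regimes, had an unadjusted limma p of 0.000726 for Fcp3C and 0.000434 for CG14187, without passing adjustment. Over all probe sets 10.3% were under an unadjusted p of 0.05 in that test. Both genes were named for P.P minus M.M, which is part of its statistic. These p-values are therefore not independent of that choice.

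The vitelline membrane gene Vm32E was at 10.15, 10.33, 10.12 and 10.14 in M.M and at 10.41, 10.87, 10.90 and 10.57 in P.P, a difference of 0.50 with an SE of 0.11. All 4 vitelline membrane genes measured were higher in P.P, with Vm26Ac at 0.37, Vm34Ca at 0.10 and Vm26Aa at 0.07, and the endochorion gene dec was at 0.41. Of 7 chorion protein genes, which are made later in eggshell assembly, 5 were lower, with Cp38 at -0.32 and Cp36 at -0.26 under an unadjusted p of 0.05. In the between-regime crosses Cp38 was at 0.23 and Cp36 at 0.14, and dec was at 0.19. The late chorion gene Cp18 had the widest spread of the eggshell list among monogamous crosses, from 8.32 to 12.10. Over the eggshell list 15 of 22 were higher, 5 of them and 2 of the lower ones under an unadjusted p of 0.05, with a median of 0.09. Over all probe sets 51.1% were higher, 3.49% were higher under that p and 2.79% lower.

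**Figure D3:**
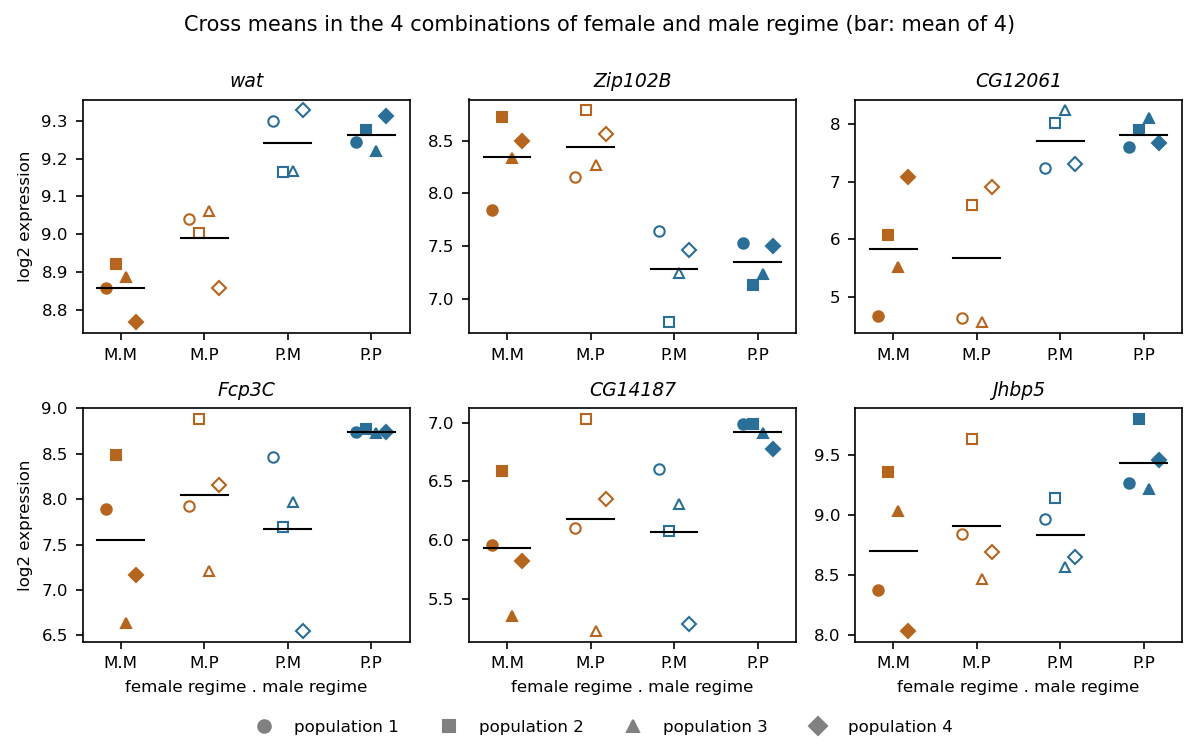
Cross means (log2, vertical axis, 1 panel for each gene, axes not from 0) in all 4 combinations of female and male regime, with the mean of 4 crosses as a bar and shapes for population numbers; own-population crosses are filled. Zip102B and CG12061 separate by female regime in both kinds of cross, whereas Fcp3C, CG14187 and Jhbp5 have their highest mean in P.P, with overlapping crosses in M.P and P.M.

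The list of yolk and lipoprotein genes, not all of which supply the oocyte, had 11 of 14 probe sets higher in P.P, with a median of 0.03. Over all probe sets 51.1% were higher. Under an unadjusted p of 0.05 were 3 higher members, against 3.49% of all probe sets higher at that level. Between regimes 7 were higher and 7 lower. The clotting protein gene fon was at 0.20, the lipid transfer particle gene Apoltp at 0.26 and the yolk protein gene Yp2 at 0.11, where Yp2 rested on levels of 14.40 to 14.57 in M.M and 14.56 to 14.62 in P.P. The lipophorin receptor gene LpR2 was lower, at -0.28 with a p of 0.051 in limma. Germline and early oogenesis genes were divided, 22 higher and 26 lower with a median of -0.01. The germline helicase gene vas was at 0.21, and the translational repressor gene pum at -0.11 and the piRNA pathway genes piwi and qin at -0.18 and -0.23. Second probe sets for pum and qin were at 0.00 and -0.09. Cell cycle and replication genes had 20 of 29 higher, with a median of 0.01. None was under an unadjusted p of 0.05, against 6.28% of all probe sets.

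Genes of the post-mating switch include the sex peptide receptor gene SPR. Its main probe set was at 7.58, 5.86, 6.55 and 6.90 in M.M and at 7.70, 7.11, 7.72 and 7.18 in P.P, a difference of 0.70 with an SE of 0.31, and monogamous population 1 lay among the promiscuous crosses. The other SPR probe set was near background and at 0.00. The octopamine receptor gene Octbeta1R was at 0.23, and its 2 other probe sets, both faint, were at -0.01 and 0.05. In all, 20 of 38 probe sets of this list were higher, with a median of 0.02. Among genes secreted in the spermatheca and female tract, the serine protease gene CG31681 had the lowest difference of any probe set on the array. It was at 10.64, 10.86, 9.95 and 9.51 in M.M and at 9.23, 7.22, 9.54 and 8.22 in P.P, a difference of -1.69 with an SE of 0.48, and at -1.51 between regimes. The groups overlapped by a single cross on each side. The neprilysin gene Nep2, whose peptidase acts in sperm storage and egg laying, was at 0.32 (0.10 between regimes) and the protease gene Ser12 at 0.38. CG17234 and Send2 were at 1.19 and 1.11, with SEs of 0.84 and 0.91, and at -0.19 and -0.65 between regimes. The list as a whole had 12 of 18 higher, against 51.1% of all probe sets.

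Juvenile hormone rises after mating and promotes yolk uptake. The gene jhamt, for the methyltransferase that completes its synthesis, was at 6.70, 6.55, 6.71 and 6.30 against 6.87, 6.77, 7.32 and 6.95, a difference of 0.41 without overlap, and the esterase gene Jhe, for an enzyme that breaks the hormone down, was at 0.50. The receptor gene gce was at -0.17 in a faint probe set and at 0.05 in another. Jhbp5, a gene of the juvenile hormone binding protein family, was at 8.38, 9.36, 9.03 and 8.03 against 9.27, 9.81, 9.22 and 9.46. Its difference of 0.74 (SE 0.26) was 1.15 in batch 1 and 0.32 in batch 2, and it was -0.08 between regimes. The unadjusted limma p for the difference of contrasts was 0.000499, where 10.3% of all probe sets were under 0.05. Jhbp5 was named for P.P minus M.M, which is part of that statistic, so this p is not independent of the choice. In ecdysone synthesis the oxygenase gene nvd was at 0.41. Of 54 probe sets 27 were higher and 27 lower, with a median of 0.00, so the count of directions did not lean either way. At an unadjusted p under 0.05 in limma 5 of the 54 were higher and 2 lower, against 3.49% and 2.79% of all probe sets.

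Antimicrobial peptide genes are induced in the fat body by infection and by mating. In P.P they were lower in 18 of 21, at a median of -0.35, but this rested largely on monogamous population 1. The diptericin gene DptB was at 11.85 in M.M population 1 and at 7.16, 6.66 and 8.46 in the other monogamous crosses, against 8.42, 7.16, 6.55 and 7.13 in P.P. The metchnikowin gene Mtk was at 12.50 in that cross and between 7.75 and 9.51 in the other 7, and edin was at 6.02 against 3.95 to 4.23. That cross had the highest value of all 8 for 13 of the 21 probe sets. The mean over the 21 was 8.30 and 9.55 on its 2 arrays, and the next highest own-population array was at 8.69, in M.M population 4. Among the between-regime arrays the highest was the batch 2 array of P.M number 1, at 8.86, followed by the batch 2 array of M.P number 1, at 8.47. Without that cross the median was -0.11, with 16 lower and 5 higher, and DptB was at -0.11 where it was -1.22 with it. In the between-regime crosses 15 of 21 were higher and the median was 0.12. Under an unadjusted p of 0.05 were 3 members, the bomanin genes BomBc3 at -0.73 and BomT3 at -0.39, and Drsl6 at -0.11. All 3 of the 21 were lower in P.P, against 2.79% of all probe sets lower at that level. M.M population 1 was the highest monogamous cross for BomBc3, at 10.79, and for BomT3, at 11.04. Between regimes BomBc3, BomT3 and Drsl6 were at 0.25, 0.08 and 0.03. Drsl6 was faint, at 4.17 in M.M and 4.06 in P.P.

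**Figure D4:**
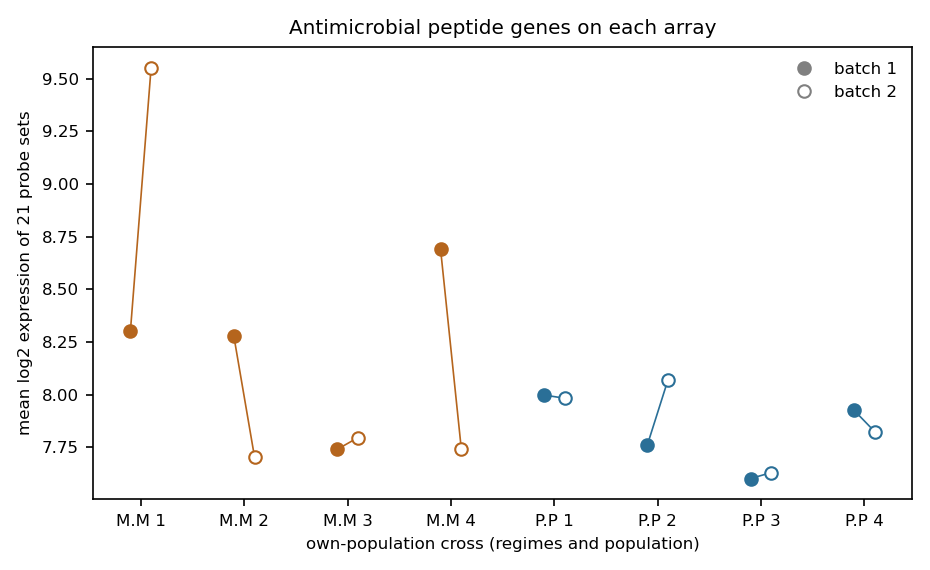
Mean log2 expression of the 21 antimicrobial peptide probe sets on each array of the 8 own-population crosses, with batch 1 filled and batch 2 open. The batch 2 array of M.M population 1, at 9.55, stands above all others, and the P.P arrays lie between 7.60 and 8.07.

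The iron-binding transferrin gene Tsf1, which withholds iron from microbes and is induced with the immune response, was at 12.52, 12.09, 11.39 and 12.18 in M.M and at 11.41, 11.30, 10.95 and 11.22 in P.P. Only monogamous population 3 reached down into the promiscuous range, and the difference was -0.82 with an SE of 0.20. A second probe set gave -0.86, and the faintest of the gene's probe sets 0.02. On batch 1 arrays the brightest probe set was at 12.49, 12.54, 11.40 and 12.78 in M.M, against 10.95 to 11.32 in P.P. On batch 2 arrays it was at 12.55, 11.63, 11.37 and 11.57, against 10.95 to 11.51. The second probe set in batch 2 was at 9.33, 8.06, 7.98 and 8.00 in M.M, so that only population 1 lay outside the P.P values of 7.23 to 8.14. Leaving out any 1 cross gave -1.04 to -0.66 for the brightest and -1.14 to -0.64 for the second probe set. Between regimes they were -0.06 and -0.09. The whole list of recognition and signalling genes, with the 3 Tsf1 probe sets in it, had 20 of 46 higher and a median of -0.02.

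Genes of the eye, muscle and mitochondria had small differences that were mostly of one sign within a list. Of 41 phototransduction and eye probe sets 35 were higher in P.P, against 51.1% of all probe sets, with a median of 0.06. The photoreceptor adhesion gene chp was at 8.49, 8.71, 8.58 and 8.76 in M.M and at 8.80, 8.94, 8.97 and 8.98 in P.P, a difference of 0.29, and inaC, trp and inaD, for an eye protein kinase C, a calcium channel and the scaffold that holds them, were at 0.14, 0.17 and 0.14. By batch, the median of these eye genes was 0.14 and 0.01. The clock gene tim was at 0.45 in a faint probe set and at -0.03 in the bright one, and the clock neuropeptide gene Pdf was at 0.17. Muscle genes had a median of 0.07 and 38 of 50 probe sets on the higher side in P.P, while without M.M population 1 the median was 0.02. The sarcomere kinase gene bt was at 0.21 and at -0.09 between regimes, with an unadjusted limma p of 4.99e-05 for the difference of contrasts. In that test 10.3% of all probe sets were under an unadjusted p of 0.05. The gene bt was picked with its own-population value known, and that value is part of the statistic. The nesprin-like gene Msp300 was at 0.25 in 1 of 6 probe sets and between -0.02 and 0.16 in the others, and the first of these was at -0.01 between regimes. Mitochondrial ribosomal protein genes were higher in 58 of 71 with a median of 0.03, and oxidative phosphorylation genes lower in 63 of 83 with a median of -0.03. In batch 1 and batch 2 these medians were 0.00 and 0.06, and -0.06 and 0.00. The mean over the oxidative phosphorylation list was 9.94, 9.91, 9.99 and 9.98 in M.M. In P.P it was 9.93, 9.97, 9.85 and 9.97, so that only population 3 of P.P lay below the monogamous crosses. Between regimes 56 of its probe sets were higher and 27 lower, and in the mitochondrial ribosomal list 63 were higher and 8 lower. Members of such a list share a tissue or an organelle, so their counts of direction are not independent. Whether fly size, tissue share or RNA quality differed between the regimes was not tested.

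Of 52 probe sets for odorant-binding proteins 7 were higher and 2 lower at an unadjusted p under 0.05, or 17.3% against 6.28% of all probe sets. They include Obp19c at 0.59 (0.08 in its second probe set), Obp56d at 0.35 and Obp19d at 0.34 among the higher and Obp56h at -0.71 among the lower. Chemoreceptor genes were higher in 69 of 186, or 37.1% against 51.1% of all probe sets, with a median of -0.02, most of them at a level where probes read little above background, and the sugar receptor gene Gr61a was at -0.27. Glutathione transferases were higher in 24 of 38, with GstE1 at 0.39 and GstE10 at 0.28, and cytochrome P450 genes in 45 of 82. The insecticide-resistance gene Cyp6g1 was at -0.79 with an SE of 0.43, a difference that came from M.M population 3 at 11.13 against 8.40 to 9.28 in the other 7 crosses. Proteasome, cytoplasmic ribosomal protein, and Turandot and heat shock genes had 0 members under an unadjusted p of 0.05. These lists hold 40, 41 and 17 probe sets, and 6.28% of all probe sets were under that p. Seminal protein genes, known for their expression in the male accessory gland, had 25 of 48 higher and a median of 0.00, and testis genes 19 of 33 and 0.01.

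**Figure D5:**
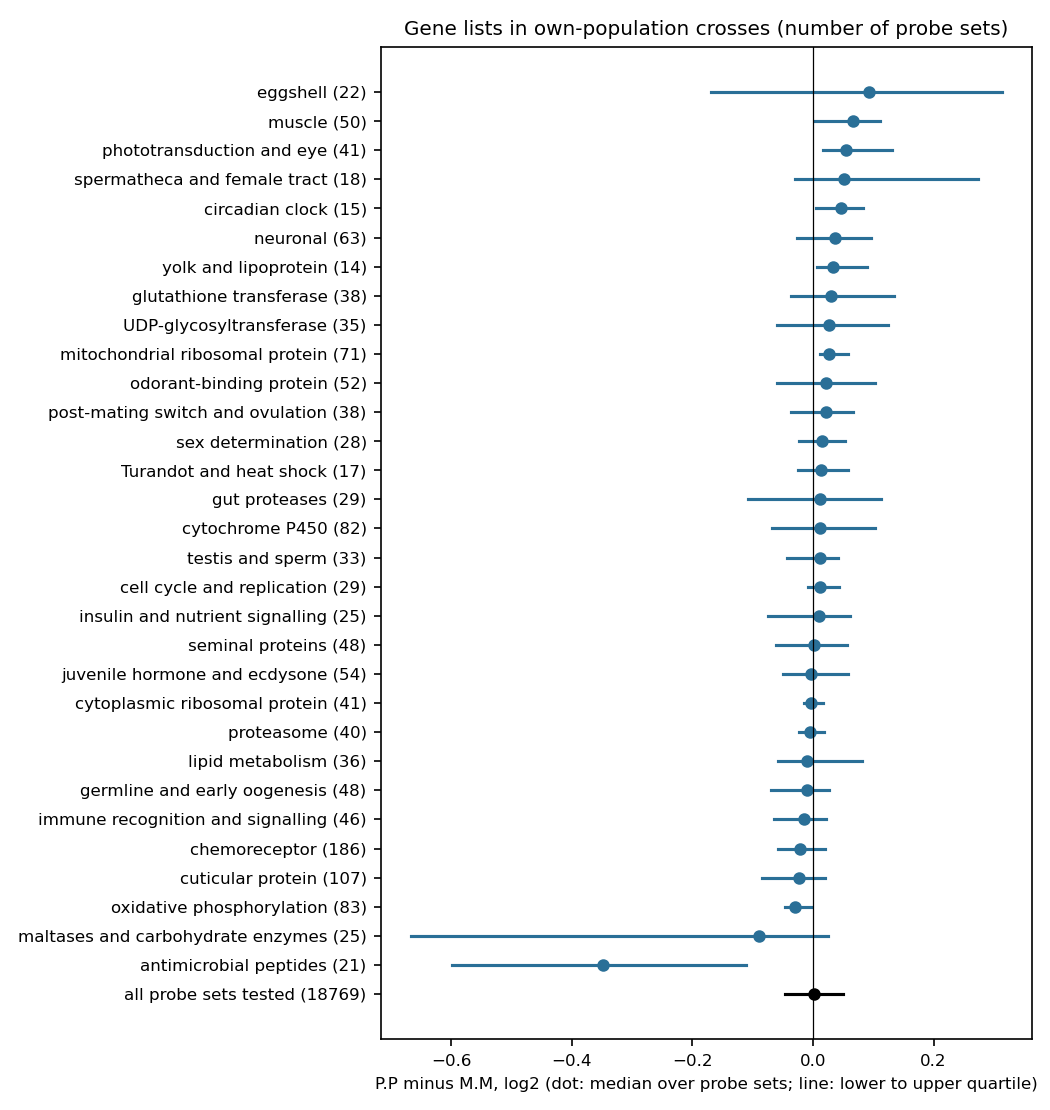
Median (dot) and lower to upper quartile (line) of the P.P minus M.M difference in log2 expression for each gene list, with the number of probe sets in brackets and all 18769 probe sets in black. Antimicrobial peptides at -0.35 and the carbohydrate list at -0.09 lie lowest, eggshell at 0.09 highest, and the widest quartile ranges belong to the lists with few, variable members.

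Spread among crosses was also compared between the regimes. The SD among the 4 crosses was larger in M.M for 10119 probe sets (53.9%), and it was 1 or more for 55 probe sets in M.M and for 22 in P.P. Between the 2 arrays of a cross, the root mean square difference over probe sets averaged 0.238 ± 0.018 (SD, n = 4) in M.M and 0.207 ± 0.014 (SD, n = 4) in P.P. A two-sided exact permutation test over the 70 assignments gave p = 0.0571 for that measure, short of the threshold, where the smallest p allowed is 0.0286. M.M population 1 deviated furthest from its group mean, at a root mean square of 0.156.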

How the data were processed

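The deposited values are log2 expression per probe set. The submitters' processing notes name RMA and affy, without versions. RMA corrects background, quantile-normalizes the arrays and summarises probes, so a shift shared by most genes would not show. Of 18952 deposited probe sets 183 controls were left out and 18769 tested. The platform annotation gave 1 gene to 13647 of these, several to 402 and none to 4720, and only the first kind was named; 13544 were found in a RefSeq gene table.

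The 2 arrays of a cross, 1 from each batch, were averaged, and 4 P.P were compared with 4 M.M crosses in limma 3.58.1 (R 4.3.3), with lmFit and a trended eBayes, as a two-sided test. P-values were adjusted by Benjamini-Hochberg over all tested probe sets, with a threshold of 0.05. P.M and M.P were fitted likewise, and the difference of the contrasts on 1 value for each population number. Same-numbered crosses deviated from their group means with correlations of 0.09, -0.01, 0.16 and 0.04, so the numbers were not taken as pairs. The fit was tested on simulated data. The genes chosen were the 12 higher and 12 lower with the smallest p, the 8 largest differences without overlap, and in each list the 2 smallest p and the largest difference. Not all of them are described above, and those left out include CG17470 at 1.21, the glutathione transferase gene GstO3 at 0.79 and the cuticular protein gene Cpr92F at -1.34. Further members are those under an unadjusted p of 0.05 or were singled out after their values were seen. Members and lists were chosen with earlier results of these data known. Arrays carry no read depth, and the number of populations limits the precision. Alternatives were arrays as samples, each batch, the number as a block, all 16 crosses, a filter on dim probe sets, 2 normalizations, no trend, and each cross left out.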

Additional observations from a re-analysis of the deposited data

Results flagged for a closer look

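In each group of 4 crosses the farthest value was set against the group's range with Dixon's criterion. Over 212 groups 11 values passed it, where chance flags about 1 in 20. In P.P population 2, BomBc3 was high at 9.43, GstE1 high at 11.8, the ionotropic receptor gene Ir76a high at 5.46 and Ugt37B1 low at 6.39. In P.P population 4, CG43402 was high at 4.33 and the stress-induced gene TotC low at 6.91. Gr61a was high in P.P population 1 at 4.05 and the serpin gene Spn38F in P.P population 3 at 4.56. Among the monogamous crosses TotC was high in population 1 at 9.39, Vm32E in population 2 at 10.33 and daw in population 3 at 7.93.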

How the results depend on the processing

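The count of probe sets at an adjusted p under 0.05 was 0 with each batch alone, without the dimmest 40% of probe sets, with quantile normalization, with centring, without the intensity trend and without any cross other than M.M population 1. It was 15 (8 higher, 7 lower) with the 16 arrays as samples and a batch term, among them wat, CG40485, CG11597, IscU, nom, CG18404, CG12061, Zip102B and Mal-B1; populations then count as correlated arrays, which adds residual degrees of freedom. It was 1 with all 16 crosses in a fit (wat, adjusted p 0.0119) and 1 with the population number as a replicate block (a probe set with no gene name, at 0.85). Leaving out a cross gave 0 to 6 calls, the 6 without M.M population 1 being CG2993 at 1.62, fok at -0.74, Zip102B at -1.17, CG17470 at 1.55, CG3609 at -0.41 and a probe set with no gene name. The 1178 under an unadjusted p of 0.05 became 761 of 11261 without the dimmest 40%, and 1019 to 1223 with a cross left out. In batch 1 alone they became 1270, and in batch 2 alone 825, which is below the 938 that would be met by chance. The between-regime count was 0 to 1 with a cross left out. For the difference of contrasts it was 1 in batch 1 alone and 0 to 5 with a number left out, and its 1934 under an unadjusted p of 0.05 became 894 in batch 2 alone and 1172 to 2042 with a number left out. Of the named genes, djl was at -0.0144 and Shab at -0.0347 in batch 2, fru at 0.0459 and TotC at 0.0652 in batch 1, each against its own sign in the average. With a cross left out Spn38F ranged from -0.89 to 0.12 and TotC from -0.55 to 0.11, the latter reversed without M.M population 1. The causes were not tested.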

Other observations

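Several of the genes with wide differences lie within 1 stretch at the end of the X chromosome in the RefSeq gene order, with other genes between them, a stretch singled out after its values were seen. From CG40485 to ATbp, the last protein-coding X gene of that table, there are 16 protein-coding genes, of which 12 had a probe set of their own, with 14 probe sets in all. Under an unadjusted p of 0.05 were 6 of the 14, against 6.28% of all probe sets: CG40485 at -0.89, the fucosyltransferase gene FucTC at 0.96, CG12061 at 1.99, CG17167 at 0.24, CG17169 at 0.23 and ATbp at 1.60. The stretch was set by CG40485, CG12061 and ATbp, whose place in this count was therefore fixed beforehand. For that reason the count cannot be weighed against the share of all probe sets. ATbp was at 3.27, 4.33, 3.54 and 5.18 in M.M and at 5.80, 5.83, 5.99 and 5.11 in P.P, so that only monogamous population 4 reached the promiscuous range. The same population was the highest monogamous cross for CG12061, at 7.08, and for FucTC, at 5.94, and population 1 the lowest for all 3. The other genes measured in the stretch had p-values above 0.05, with Rab21 at -0.07, Coa7 at 0.00, zyd at -0.19, CG17163 at 0.04 and CG17168 at -0.03, and in su(f) 2 probe sets were at 0.11 and 0.01. Between regimes CG12061, FucTC and ATbp were at 2.03, 0.98 and 1.63, and CG40485 at -0.85, while CG17167 was at 0.31 and CG17169 at -0.07. The second CG40485 probe set was at 0.17 in own-population and 0.21 in between-regime crosses. Whether a sequence difference between the populations under the probes accounts for any of these values was not tested.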
